A study of Homo sapiens with 8 samples.

Results

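Most of the genes described here encode subunits of oxidative phosphorylation. They were followed in HCT116, a human colorectal cancer cell line, as all array probes whose gene name starts with *NDUFA*, *NDUFB*, *NDUFC*, *NDUFS*, *NDUFV*, *UQCR*, *COX4I*, *COX5*, *COX6*, *COX7*, *COX8* or *ATP5*, together with *SDHA*, *SDHB*, *SDHC* and *SDHD*. This rule took 90 gene names, measured by 118 of the 50599 distinct probes, and left out 2 pseudogene probes. Some of the 90 are not subunits but were counted with their complexes. They include the assembly factors *NDUFAF1*, *NDUFAF2*, *NDUFAF3* and *NDUFAF4*, the supercomplex factor *COX7A2L*, and *ATP5S* and *ATP5SL*. Expression was measured on 8 one-color arrays from 4 clones that had been selected with G418. The controls were CONT1 and CONT2, which carried a plasmid with a negative control miRNA. In TET1-KD1 and TET1-KD2, *TET1*, the gene of a 5-methylcytosine oxidase, was targeted by stable expression of artificial miRNAs, of which 2 kinds were used. Every clone was analyzed without drug and after 72 h in 1 µM 5-aza-dC, a cytidine analog that traps and depletes DNA methyltransferases, so each of the 4 conditions has n = 2, with 1 array per clone. The array titles give this design, whereas a separate treatment label gives mock treatment for every control array and 5-aza-dC for every knockdown array, and the titles were followed. Each kind of clone is known here from 2 isolated colonies, and p-values measure the spread between such clones.

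Both arrays of the treated control clones lie on a second slide that was scanned 230 days after the first. Slide and treatment therefore cannot be told apart in the control clones, whereas every array of the knockdown clones lies on the first slide. All 10 synthetic spike-in RNAs were dimmer on the second slide, by up to 1 log2 unit. The 75th percentile of the intensities lay between 395.5 and 623.7 on the 8 arrays. The *TET1* probes had log2 intensities of 9.70 and 9.75 in CONT1 and CONT2 against 8.65 and 9.41 in TET1-KD1 and TET1-KD2 on the brightest, and the difference of −0.69 did not pass the test (adjusted p = 0.61, limma). A probe above background on all 8 arrays differed by −0.98 and a dim one, above background on 2, by −2.14. Neither passed (adjusted p = 0.585 and 0.37, limma). *EPCAM*, *CDH1*, *CLDN4* and the keratins *KRT8*, *KRT18* and *KRT19*, which mark colorectal epithelial cells, were above background on all 8 arrays on at least 1 probe, whereas *VIL1* was above background on 2. Of the markers of other cells, *COL1A2* was above background on no array, *CD3E* on 1, *PECAM1* on at most 3, *DCN* on 4, *VWF* on 7, and *COL1A1* and *PTPRC* on 8, each on its best probe. With the drug, *VWF*, *DCN*, *PECAM1*, *PTPRC* and *COL1A1* rose on these probes in the control clones, by 2.27, 3.30, 3.49, 1.56 and 0.99 (adjusted p = 0.00121, 0.00935, 0.0167, 0.0145 and 0.0285). In the knockdown clones *VWF* rose by 2.69 (adjusted p = 0.00128), and the others differed by 1.95, 1.42, 0.08 and 0.75 and did not pass the test. The probes of *DCN* and *PECAM1* were tested only because treated arrays were above background. Their untreated signal was within background, so the sizes of their differences are not exact. A second *PTPRC* probe fell by 0.74 and 0.84 in control and knockdown clones (adjusted p = 0.0142 and 0.0246), and a second *VWF* probe differed by −1.57 and −0.00 and did not pass. The part of these genes in the results below was not tested.

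Oxidative phosphorylation couples the oxidation of nutrients to ATP synthesis in the inner mitochondrial membrane. Complex I takes electrons from NADH and complex II from succinate, complex III passes them from ubiquinol to cytochrome c, and complex IV hands them to oxygen. The protons pumped by complexes I, III and IV drive ATP synthase, complex V. Most subunits are encoded in the nucleus and made in all tissues. Several nuclear subunits of complex IV, however, come in alternative isoforms that are largely restricted to certain tissues. *COX7A1* and *COX6A2* are the isoforms of heart and skeletal muscle, *COX7B2* and *COX6B2* are best known from testis, *COX4I2* from lung, and *NDUFA4L2* is induced by hypoxia.

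Of the 118 probes, 115 (89 genes) exceeded background on both arrays of some condition and were tested, among 27286 probes in all, and 109 did so on all 8 arrays. The 3 untested ones were a second probe of *NDUFS7*, a second probe of the paralog *ATP5L2* and the only probe of *NDUFA4L2*. By complex, 49 of 50 probes were tested in complex I, 11 of 11 in complex II, 12 of 12 in complex III, 21 of 22 in complex IV and 22 of 23 in complex V. The signal of a probe was log2 transformed after scaling to the 75th percentile of its array, and levels of different probes are not on a common scale. Differences were tested with limma in 1 fit of all 8 arrays and called at a Benjamini-Hochberg adjusted p-value below 0.05.

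After 5-aza-dC, 3 tissue-restricted isoforms of complex IV, *COX7A1*, *COX8C* and *COX7B2*, were strongly upregulated in both kinds of clone, while most of the other probes moved little. In the control clones, 15 of the 115 tested probes were upregulated and 19 downregulated. Over all probes tested, 19.2% were called higher and 22.6% lower in the same comparison. In the knockdown clones, 3 were upregulated and 2 downregulated, against 8.9% and 2.89% over all probes tested. All 3 probes that rose in the knockdown clones also rose in the control clones, no probe was downregulated in both, none was called in opposite directions, and 79 were called in neither. The median log2 difference of the 115 probes was −0.07 in the control clones, against −0.08 over all probes, and −0.19 in the knockdown clones, against −0.07. Differences of more than 1 in size on the log2 scale were seen for 8 of the 115 in the control clones and for 5 in the clones with knockdown, against 8593 and 4001 of all 27286 probes.

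**Figure D1:**
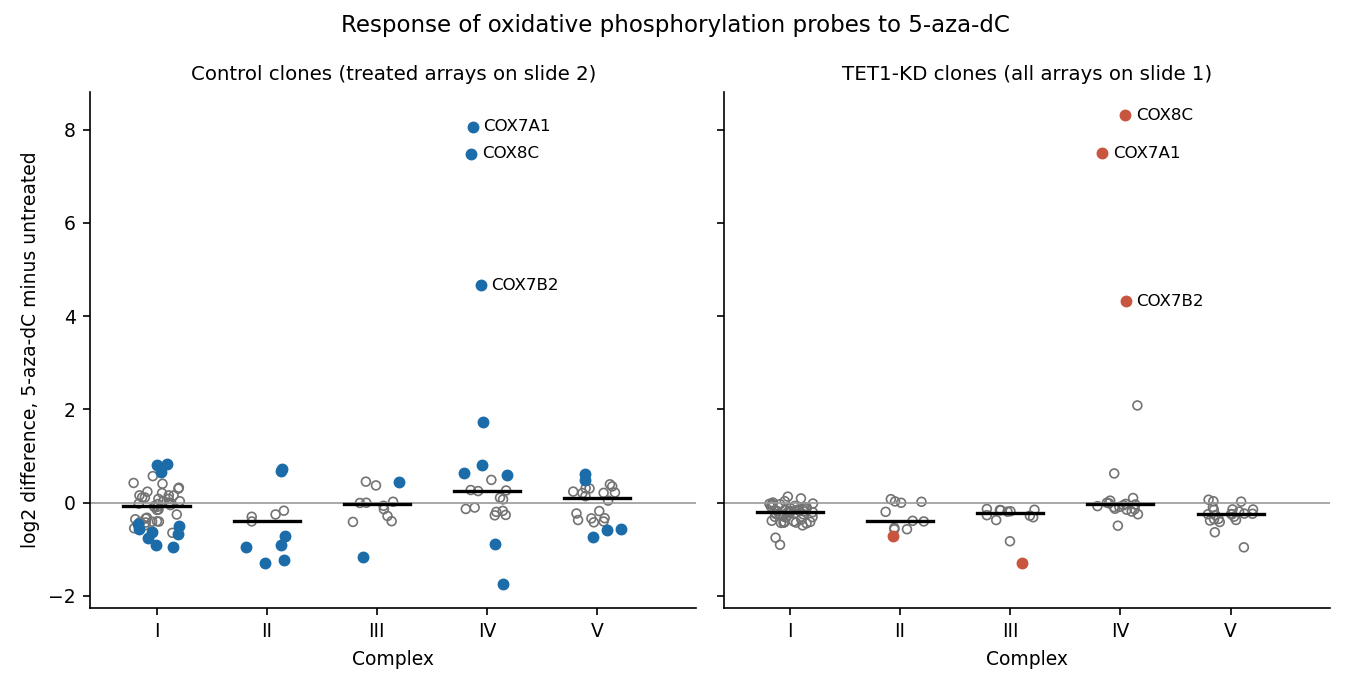
Log2 difference of each tested probe between 5-aza-dC and untreated arrays, by complex, in control clones (left) and *TET1* knockdown clones (right). Filled points passed the test, open points did not, and the black line is the median of the complex. *COX7A1*, *COX8C* and *COX7B2* stand above 4 in both panels; the small medians depend on the scaling of the arrays, and without the isoforms the median of complex IV in the control clones went from 0.18 to −0.02 with quantile normalization and to −0.50 with spike-in scaling.

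The direction of the smaller changes in the control clones depended on how the arrays were scaled. With quantile normalization, 10 probes were called higher and 27 lower, with scaling to the spike-in RNAs 3 and 69, and with the trend on probe GC content subtracted 21 and 12. Over all 27286 probes, the calls moved from 5233 higher and 6168 lower to 4557 and 7496, 3983 and 9070, and 6104 and 4733. These scalings moved the median of all probes from −0.08 to −0.20, −0.34 and 0.06, and the 3 isoforms named above were called higher under each of them. Leaving out 1 array also changed the counts. Without untreated CONT1 5 probes were called higher, and without untreated CONT2 or treated CONT2 6 were, whereas 9, 6, 7 and 11 were called lower without untreated CONT1, untreated CONT2, treated CONT1 or treated CONT2.

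The upregulated isoforms were members of complex IV, or cytochrome c oxidase. *COX8C* encodes an isoform of subunit VIII and *COX7B2* one of subunit VIIb. The bases before their start sites are shown beside those of their ubiquitous counterparts because the isoforms rose with a drug that acts on DNA methylation and the counterparts did not pass the test. Each stretch is the 250 bases before the annotated start, 5′ to 3′ on the strand of the gene, from RefSeq on GRCh38.p14, and capitals mark CpG dinucleotides, the sites that DNA methyltransferases act on. *COX8C* lies on the plus strand at chr14:93346932-93347181 with 8 CpG, and *COX8A* on the plus strand at chr11:63974370-63974619 with 16. *COX7B2* lies on the minus strand at chr4:46909246-46909495 with 5 CpG, and *COX7B* on the plus strand at chrX:77899218-77899467 with 13.
COX8C: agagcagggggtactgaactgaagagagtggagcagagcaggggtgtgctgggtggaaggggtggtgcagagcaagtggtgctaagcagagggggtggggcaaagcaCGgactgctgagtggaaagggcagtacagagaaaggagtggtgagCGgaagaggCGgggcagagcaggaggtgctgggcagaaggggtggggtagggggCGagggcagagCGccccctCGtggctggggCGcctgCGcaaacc
COX8A: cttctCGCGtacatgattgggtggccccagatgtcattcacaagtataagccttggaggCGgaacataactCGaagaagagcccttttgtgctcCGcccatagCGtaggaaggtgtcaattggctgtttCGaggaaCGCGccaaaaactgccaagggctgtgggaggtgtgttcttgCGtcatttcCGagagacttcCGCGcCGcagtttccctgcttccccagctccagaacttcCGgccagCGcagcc
COX7B2: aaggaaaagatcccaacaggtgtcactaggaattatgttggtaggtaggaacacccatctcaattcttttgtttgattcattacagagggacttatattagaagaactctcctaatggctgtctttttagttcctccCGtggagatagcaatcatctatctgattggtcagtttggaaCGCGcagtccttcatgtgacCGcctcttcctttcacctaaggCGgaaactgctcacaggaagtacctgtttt
COX7B: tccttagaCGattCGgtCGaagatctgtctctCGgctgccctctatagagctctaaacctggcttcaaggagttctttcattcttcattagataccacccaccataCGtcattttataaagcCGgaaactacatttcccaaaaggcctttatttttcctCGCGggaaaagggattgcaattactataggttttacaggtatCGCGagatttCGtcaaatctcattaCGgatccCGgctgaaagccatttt

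A promoter stretch was matched for 73 of the 90 member genes, 60 by current symbol and 13 by a synonym, and no sequence is given for *COX7A1* or *COX4I2*. The 73 had a median of 18 CpG in 250 bases, against 10 over 27305 RefSeq promoters. The 5 tissue-restricted isoforms among them, *NDUFA4L2* included, had a median of 8, from 1 in *COX6A2* to 26 in *COX6B2*. Motif letters were searched on both strands of these bases for 3 factors known to act on nuclear genes of the respiratory chain, and none of the motifs contains another. CCGGAAG, the core that GABPA and other ETS factors bind, was found in 17 of the 73 (23.3%), against 8.72% of all promoters. CGCATGCG, a core of the NRF1 site, was found in 7 (9.59%), against 1.79%, and AAGATGG, the core of YY1, in 4 (5.48%), against 3.75%. None of the 5 isoform stretches held any of the 3. These shares describe the letters of the window only. Methylation of these promoters was not analysed here.

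*COX7A1*, the muscle isoform of subunit VIIa (probe at chr19:36642378-36642437 in hg19), had log2 intensities of 2.08 and 2.56 in CONT1 and CONT2 without drug, which became 10.39 on both treated arrays. In TET1-KD1 and TET1-KD2 it went from 1.93 and 2.29 to 9.57 and 9.65. The treated and untreated arrays did not overlap, and no untreated array was above background. The probe was tested only because its treated arrays were above background, so the lack of overlap is no separate support for the rise. The log2 differences were 8.07 in control clones (standard error 0.22, adjusted p = 2.62e-05) and 7.50 in knockdown clones (standard error 0.22, adjusted p = 4.28e-05). Because the untreated signal was within background, the change is better given as a bound, the treated mean over the lowest signal that was still above background on the untreated arrays. By this measure *COX7A1* was at least 67.2-fold higher in treated control clones and at least 37.0-fold higher in treated knockdown clones.

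*COX8C* (probe at chr14:93814553-93814612 in hg19) had untreated log2 intensities of 5.57 and 5.63 in the control clones, 2.15 in TET1-KD1 and 5.41 in TET1-KD2. After 5-aza-dC these were 13.16 and 13.01 in the control clones and 11.61 and 12.56 in TET1-KD1 and TET1-KD2. Untreated TET1-KD1 was the only array on which the probe was not above background, and treated and untreated arrays did not overlap. The log2 difference was 7.48 in the control clones (standard error 0.97, adjusted p = 0.00212) and 8.31 in the knockdown clones (standard error 0.97, adjusted p = 0.00312), and the difference between the responses did not pass the test (adjusted p = 0.754). Because the untreated signal of TET1-KD1 was within background, the size of the difference in the knockdown clones is not exact. It was 7.15 in TET1-KD2 alone and ranged from 5.70 to 9.94 under the alternatives.

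*COX7B2*, the testis isoform of subunit VIIb (probe at chr4:46736924-46736983 in hg19), was not above background on any untreated array, with log2 intensities between 1.97 and 2.35. It reached 6.90 and 6.52 in treated CONT1 and CONT2 and 7.41 and 5.56 in treated TET1-KD1 and TET1-KD2. All treated arrays were above all untreated ones. Since the probe was tested only because of its treated arrays, this is no separate support for the rise. The log2 difference was 4.66 in the control clones (standard error 0.56, adjusted p = 0.00159) and 4.32 in the knockdown clones (standard error 0.56, adjusted p = 0.00481), which corresponds to at least 5.26-fold and at least 4.24-fold.

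*COX4I2*, the lung isoform of the regulatory subunit IV, stayed dim. Its log2 intensities were 3.29 and 2.26 in untreated CONT1 and CONT2, 3.42 and 2.30 in untreated TET1-KD1 and TET1-KD2, 4.68 and 4.34 in treated control clones and 4.52 and 5.37 in treated knockdown clones. Every treated array was higher than every untreated one, but only 3 of the treated arrays were above background. The probe was tested only because both treated knockdown arrays were above background, so this lack of overlap is no separate support for the rise. It rose by 1.74 in the control clones (standard error 0.52, adjusted p = 0.0374), a bound of at least 1.15-fold, and the difference in the knockdown clones was 2.08 (standard error 0.52, adjusted p = 0.0515). The call in the control clones was lost under 9 of 21 alternatives. These were leaving out untreated CONT2, treated CONT1 or treated CONT2 (adjusted p = 0.177, 0.143 and 0.0932), quantile normalization (0.147), spike-in scaling (0.12), the methods' t-test (0.158), an offset of 50 before the log (0.0943), no filter on dim probes (0.0678) and the clone as a block (0.0548).

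Not every restricted isoform rose. *COX6A2*, the muscle isoform of subunit VIa, was at 5.02 and 5.07 in untreated and 3.44 and 3.14 in treated control clones, and at 4.61 and 5.16 in untreated and 4.83 and 5.13 in treated knockdown clones. It was downregulated in the control clones by a log2 difference of −1.75 (standard error 0.24, adjusted p = 0.0024), at least 1.46-fold, and differed by 0.10 in the knockdown clones (standard error 0.24, adjusted p = 0.831). With normexp background correction the difference in the control clones was −0.10 and the call was lost (adjusted p = 0.633). The brighter probe of *COX6B2*, the testis isoform of subunit VIb, lay between 11.95 and 12.84 on all 8 arrays, with differences of −0.27 and −0.49 that did not pass the test (adjusted p = 0.294 and 0.158). Its dimmer probe, at 4.84 to 6.09, differed by −0.11 and 0.63 and did not pass either (adjusted p = 0.844 and 0.345), so that the probes had opposite signs in the knockdown clones. *NDUFA4L2* was above background on treated CONT2 (5.19) and treated TET1-KD2 (5.14) alone and was not tested.

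The ubiquitous counterparts moved far less. *COX7A2*, the broadly expressed form of subunit VIIa, differed by 0.07 in the control clones (95% confidence interval −0.28 to 0.42) and by −0.00 in the knockdown clones (interval −0.35 to 0.35). *COX8A* differed by −0.20 and −0.19 in control and knockdown clones (intervals −0.53 to 0.14 in both), *COX7B* by 0.27 (−0.09 to 0.64) and −0.14 (−0.51 to 0.22), and *COX4I1* by 0.26 (−0.06 to 0.59) and −0.02 (−0.34 to 0.31). None of these passed the test. *COX6A1* was the exception, with a rise of 0.59 in the control clones (adjusted p = 0.0169) and a difference of −0.10 in the knockdown clones (adjusted p = 0.706).

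**Figure D2:**
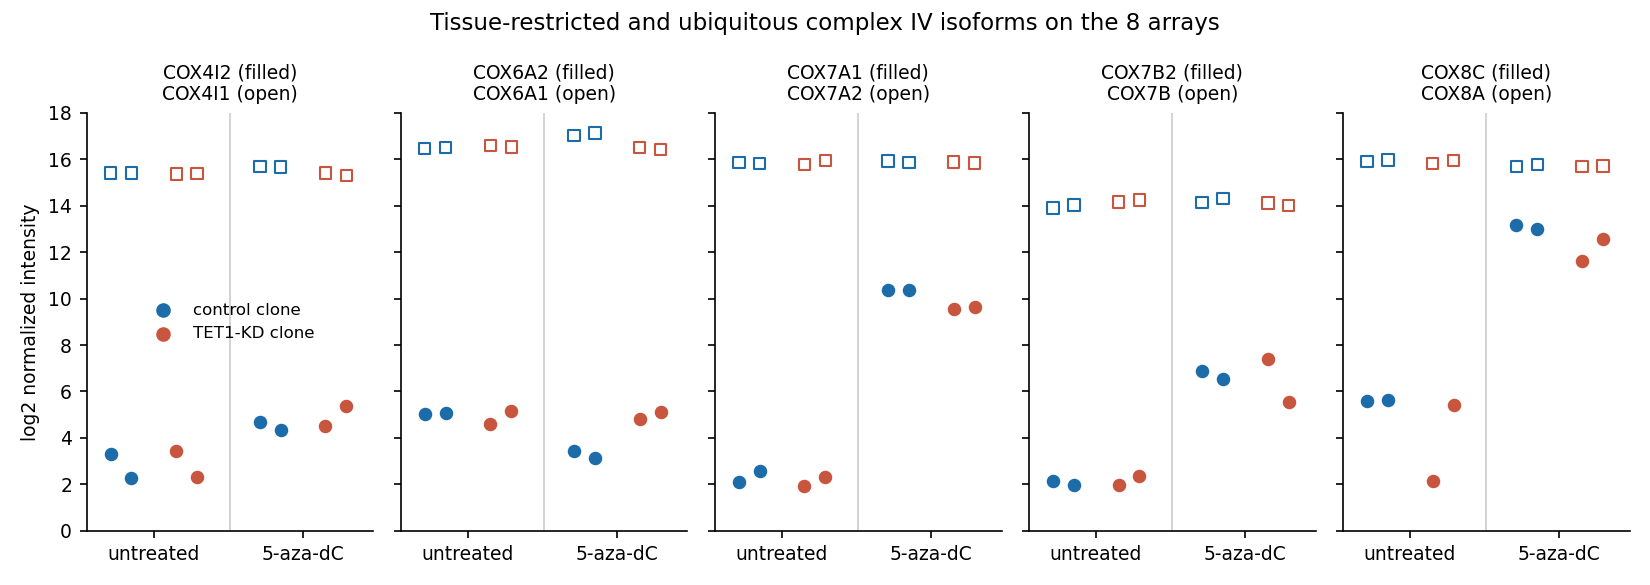
Log2 normalized intensity of 5 tissue-restricted complex IV isoforms (filled circles) and their ubiquitous counterparts (open squares) on the 8 arrays, control clones in blue and *TET1* knockdown clones in red, each array 1 point. *COX7A1*, *COX7B2* and *COX8C* were higher on every treated array than on every untreated one, and *COX6A2* was lowest on the treated control arrays. *COX7A1*, *COX7B2* and *COX4I2* were tested only because treated arrays were above background. Levels of different probes cannot be compared.

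Apart from the isoforms, 108 probes of 83 genes were tested, and the largest log2 difference among them was −1.31 in the control clones, and −1.30 in the clones with knockdown. In the control clones, 11 of them (10.2%) were upregulated, by 0.44 to 0.84, and 18 (16.7%) downregulated, by 0.47 to 1.31. Over all probes tested the shares were 19.2% and 22.6%. The median difference of those 11 was −0.03 in the knockdown clones, and 4 had the same sign. The median of those 18 was −0.35 there, and 17 had the same sign. Of the 108, 11 were above zero in the knockdown clones, as were 11980 of all 27286 probes. Their median was −0.15 in TET1-KD1 and −0.25 in TET1-KD2, and the median of all probes was −0.06 and −0.07. With quantile normalization, however, this order turned, with a median of −0.05 over the 108 and −0.13 over all probes.

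Complex I, the NADH dehydrogenase, was represented by 49 tested probes of 41 genes, of which 3 were upregulated and 8 downregulated in the control clones. These shares of 6.12% and 16.3% compare with 19.2% and 22.6% of all probes tested. None of the 49 was called in the knockdown clones, where 8 had an unadjusted p below 0.05, as did 7602 of all 27286 probes. The accessory subunits *NDUFB3*, *NDUFA1* and *NDUFS5* rose. *NDUFB3* had log2 intensities of 13.63 and 13.65 in untreated and 14.42 and 14.53 in treated control clones, a difference of 0.84 (standard error 0.20, adjusted p = 0.0194), and of 14.18, 13.92, 14.26 and 13.78 in the knockdown clones without and with drug, a difference of −0.03. *NDUFA1* and *NDUFS5* rose by 0.81 (adjusted p = 0.016) and 0.66 (adjusted p = 0.0112) and differed by −0.05 and 0.03 in the knockdown clones. With spike-in scaling, *NDUFS5* turned to −0.10 in the control clones.

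Among the downregulated probes of complex I, *NDUFS7*, which holds the terminal iron-sulfur cluster, fell from 12.94 on both untreated arrays to 11.91 and 12.09 in the control clones, a difference of −0.95 (standard error 0.19, adjusted p = 0.00923). It went from 12.81 and 13.05 to 12.30 and 12.66 in TET1-KD1 and TET1-KD2, a difference of −0.44 (adjusted p = 0.184). The accessory subunits *NDUFB10* and *NDUFA7* fell by 0.90 and 0.77 in the control clones (adjusted p = 0.0189 and 0.0324) and differed by −0.41 and −0.75 in the knockdown clones (adjusted p = 0.279 and 0.0789). The assembly factor *NDUFAF2* was called lower on 1 of its 2 probes (−0.62 and 0.11). The core subunits *NDUFV1*, which binds NADH, and *NDUFS1* differed by −0.16 and −0.09 in the control clones, and by −0.02 and −0.11 in the clones with knockdown, and neither passed the test.

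Complex II, succinate dehydrogenase, links the citric acid cycle to the respiratory chain and is built from the flavoprotein *SDHA*, the iron-sulfur protein *SDHB* and the membrane anchors *SDHC* and *SDHD*. In the control clones 2 of its 11 probes (18.2%) were upregulated and 5 (45.5%) downregulated, and 1 (9.09%) was downregulated in the knockdown clones. Of all probes tested, 19.2% were called higher and 22.6% lower in the control clones, and 2.89% lower in the knockdown clones. All 3 probes of *SDHD* fell in the control clones. The brightest went from 12.37 and 12.54 to 11.22 and 11.25, and in the knockdown clones from 12.29 and 12.58 to 11.87 and 11.85. Treated arrays were below untreated ones in both kinds of clone. The 3 probes differed by −1.22, −1.31 and −0.73 in the control clones (adjusted p = 0.00228, 0.00216 and 0.0195) and by −0.57, −0.57 and −0.54 in the knockdown clones (adjusted p = 0.0753, 0.0847 and 0.107). The probes lie side by side in hg19 (chr11:111965707-111965925), and 2 of them overlap. The difference between the kinds of clone did not pass the test for any of them (adjusted p = 0.133 to 0.692).

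Different probes of *SDHA* disagreed in the control clones. The probe with 35% GC rose by 0.73 (adjusted p = 0.00691) and the probe with 55% GC fell by 0.90 (adjusted p = 0.00504), while those with 41.7% and 48.3% GC differed by −0.40 and −0.25. In the knockdown clones the same 4 probes differed by −0.00, 0.03, 0.02 and 0.07. *SDHA* has near-identical pseudogene copies, and whether the probes also bind their RNA was not tested. *SDHB* rose by 0.67 in the control clones (13.70 and 13.69 to 14.33 and 14.40, adjusted p = 0.0116) and differed by −0.20 in the knockdown clones (13.63 and 13.76 to 13.44 and 13.55, adjusted p = 0.419). Of the 3 probes of *SDHC*, that with 48.3% GC fell by 0.96 in the control clones (adjusted p = 0.00505). The dimmest fell by 0.71 in the knockdown clones (adjusted p = 0.044) and differed by −0.17 in the control clones, and it is named here because its call was seen. That call was lost without any 1 of the 8 arrays (adjusted p = 0.0629 to 0.182) and with the clone as a block (adjusted p = 0.0671).

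**Figure D3:**
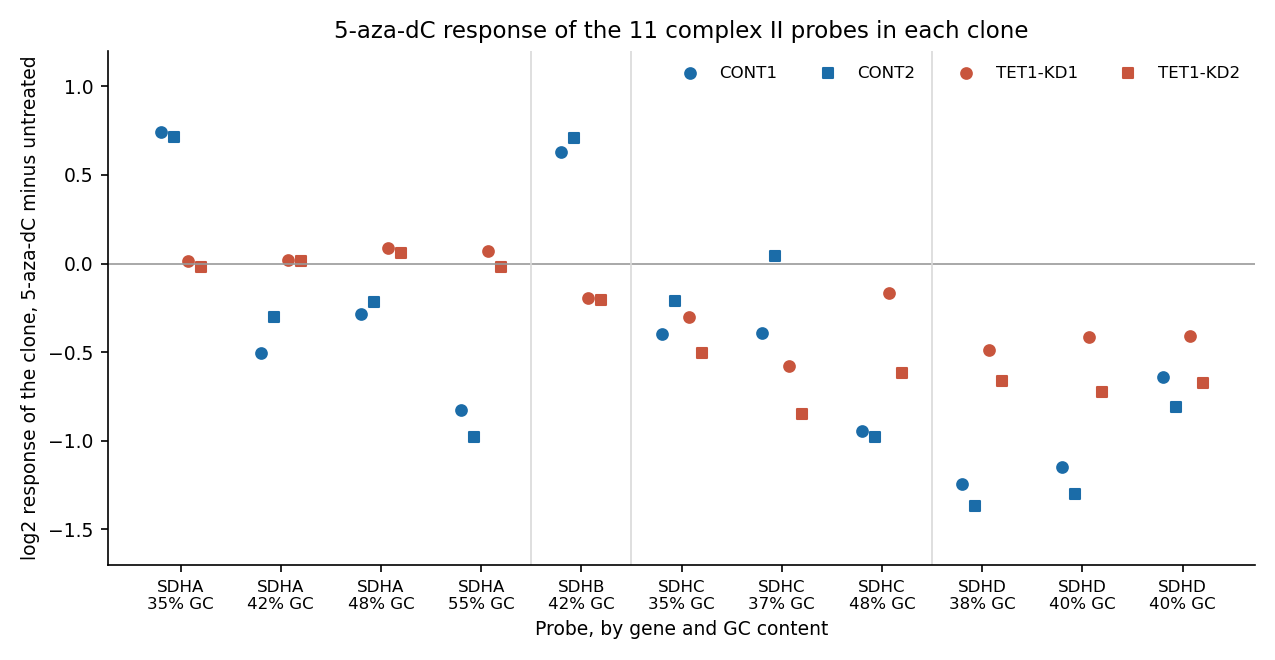
Response of each clone (log2 intensity after 5-aza-dC minus untreated) for the 11 probes of complex II, ordered by gene and by the GC content of the probe. All 12 clone responses of *SDHD* are below zero, whereas the 4 probes of *SDHA* spread between 0.74 and −0.98 in the control clones and lie near zero in the knockdown clones.

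Complex III, the cytochrome bc1 complex, had 12 tested probes of 8 genes, of which 1 was upregulated and 1 downregulated in the control clones. This is 8.33% in each direction, against 19.2% and 22.6% of all probes tested. The core protein *UQCRC1* fell from 13.80 and 13.97 to 12.63 and 12.83, a difference of −1.16 (standard error 0.24, adjusted p = 0.012), and differed by −0.19 in the knockdown clones, where TET1-KD1 (13.19 and 13.01) was below TET1-KD2 (13.69 and 13.48). The hinge protein *UQCRH* rose on 1 of its 2 probes by 0.44 (adjusted p = 0.0445), while the other differed by −0.01. The Rieske iron-sulfur protein *UQCRFS1* differed by −0.40 and −0.28 in the control and knockdown clones and did not pass the test. A dim second probe of *UQCRB*, named for its call, was downregulated in the knockdown clones from 6.76 and 6.60 to 5.35 and 5.39 (log2 difference −1.30, adjusted p = 0.0123), with −0.00 in the control clones. Its brighter probe differed by −0.16 in the knockdown clones. The call was lost without untreated TET1-KD1 or treated TET1-KD2 (adjusted p = 0.0602 and 0.0625).

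Complex IV without its restricted isoforms had 12 probes of 11 ubiquitous subunits and 2 of the supercomplex factor *COX7A2L*. Of the 12, 3 (25%) rose and 1 (8.33%) fell in the control clones, against 19.2% and 22.6% of all probes tested. None of the 12 passed the test in the knockdown clones. There no difference exceeded 0.25 in size, and none had an unadjusted p below 0.05, against 7602 of all 27286 probes. *NDUFA4*, a subunit once counted with complex I, rose from 15.01 and 14.90 to 15.77 and 15.75 (0.80, adjusted p = 0.00531) and differed by 0.04 in the knockdown clones. *COX5A* and *COX5B* form part of the nuclear shell around the catalytic core. *COX5A* rose on 1 of 2 probes (0.63 and 0.49, adjusted p = 0.0211 and 0.0662), whereas *COX5B* fell from 13.78 and 13.89 to 12.91 and 12.96 (−0.90, adjusted p = 0.004). In the knockdown clones they differed by −0.04, −0.03 and −0.15. The *COX5A* probes have 35% GC and that of *COX5B* 51.7%.

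Complex V, the ATP synthase, had 22 tested probes of 18 genes, with 2 (9.09%) called higher and 3 (13.6%) lower in the control clones. The shares of all probes tested were 19.2% and 22.6%. None of the 22 was called in the clones with knockdown, where 3 had an unadjusted p below 0.05, as did 7602 of all 27286 probes. The catalytic subunits *ATP5A1* and *ATP5B* differed by 0.24 and 0.31 in the control clones, and by −0.24 and −0.35 in the clones with knockdown, and did not pass the test. *ATP5C1*, the rotating gamma subunit, fell from 12.27 and 12.52 to 11.62 and 11.69 (−0.75, adjusted p = 0.0134) and differed by −0.38 in the knockdown clones. The genes of the proton-carrying c subunit, *ATP5G1*, *ATP5G2* and *ATP5G3*, differed by −0.33, −0.42 and 0.22 in the control clones, and by −0.37, −0.25 and −0.27 in the clones with knockdown, none of which passed. *ATP5SL*, which carries the name but is not a subunit of the synthase, fell by 0.58 in the control clones (adjusted p = 0.0476) and differed by −0.64 in the knockdown clones (adjusted p = 0.0817). *ATP5L* and a probe named for its paralog *ATP5L2* rose by 0.48 and 0.62. The other *ATP5L2* probe was above background on no array, and whether the first also binds *ATP5L* RNA was not tested.

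In the control clones, responses varied with the GC content of the probes, which is that of the stretch of transcript each one matches. Among the 108 probes without the restricted isoforms, the median log2 difference was 0.06 for 20 probes with at most 35% GC, −0.01 for 59 probes above 35% and up to 45%, and −0.41 for 29 probes above 45%. Over all probes tested it was 0.15, −0.00 and −0.45 in the same classes. For the knockdown clones the medians of the 108 were −0.24, −0.21 and −0.18, and those of all probes −0.10, −0.07 and −0.04. The 15 probes called higher in the control clones had a median GC content of 35%, the 19 called lower one of 48.3% and the 81 without a call one of 43.3%. Of the 20 genes with several tested probes, 13 had a wider range between probes in the control clones than in the knockdown clones, and the median range was 0.49 against 0.11. The part of probe GC content in these calls cannot be told apart from that of the slide.

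**Figure D4:**
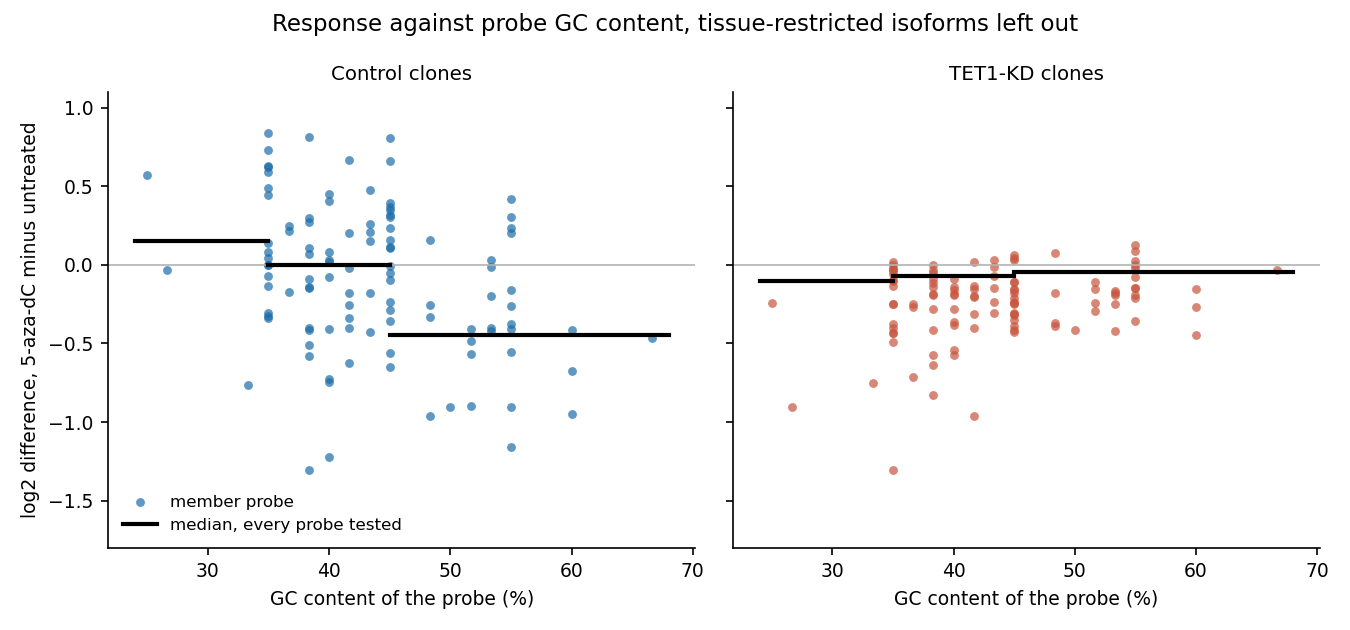
Log2 difference between 5-aza-dC and untreated arrays against the GC content of the probe for 108 probes without the tissue-restricted isoforms, in control clones (left) and *TET1* knockdown clones (right). Black lines are the medians of all 27286 probes tested in 3 classes of GC content, which step from 0.15 to −0.45 in the control clones and stay between −0.10 and −0.04 in the knockdown clones.

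Without drug, none of the 115 probes passed the test between knockdown and control clones by limma. Of them 1 had an unadjusted p below 0.05, against 2253 of all 27286 probes. Over all probes tested, 0.00733% were called higher and 0.00733% lower. The methods' t-test called none after adjustment either and gave 11 with an unadjusted p below 0.05. The median difference of the 115 was 0.01 and of all probes 0.02, and the 95% confidence interval lay within 1 log2 unit on both sides for 101 of the 115. The smallest p-values belonged to the accessory subunit *NDUFA5* (11.82 and 11.88 in control clones, 12.45 and 12.26 in knockdown clones, difference 0.50, adjusted p = 0.586), the assembly factor *NDUFAF4* (0.38, adjusted p = 0.629) and *NDUFA3* (−0.32, adjusted p = 0.63). By complex, the median was 0.08 in complex I, −0.10 in complex II, 0.07 in complex III, −0.01 in complex IV and −0.06 in complex V.

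The response to 5-aza-dC differed between knockdown and control clones for 1 of the 115 probes, *COX6A2*, which is described above. Over all probes tested, 4.02% had a higher and 1.56% a lower response in the knockdown clones. No probe of the set had a lower response by limma. An unadjusted p below 0.05 in either direction was seen for 28 of the 115, and for 6743 of all 27286 probes. Below an adjusted p of 0.08 were also the *SDHA* probe with 55% GC (0.93, adjusted p = 0.0609) and that with 35% GC (−0.73, adjusted p = 0.078), *SDHB* (−0.87, adjusted p = 0.0615), the dim probe of *UQCRB* (−1.30, adjusted p = 0.0618) and *NDUFA4* (−0.76, adjusted p = 0.076). These comparisons share their untreated arrays with the comparisons within each kind of clone, and they include the second slide.

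The 2 clones of a kind could be compared within 1 slide with and without drug, and here 3 members of chromosome 21 stood apart. *ATP5O*, which encodes the stalk subunit that confers oligomycin sensitivity on ATP synthase (probe at chr21:35275799-35275858 in hg19), had log2 intensities of 14.82 in untreated TET1-KD1 against 15.93 in TET1-KD2, 15.75 in CONT1 and 15.78 in CONT2. After 5-aza-dC it had 14.49 against 15.43, 15.46 and 15.60. *ATP5J*, encoding coupling factor 6, had 13.62 against 14.58, 14.40 and 14.39, and 13.36 against 14.36, 14.32 and 14.10 with drug. The complex I subunit *NDUFV3* had 11.68 against 12.77, 12.69 and 12.72, and 11.54 against 12.56, 12.78 and 12.94. TET1-KD1 was thus the lowest clone for all 3 genes, both without and with drug, by about the same amount. These 3 probes are the only ones of the set on chromosome 21 that were above background on all arrays.

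Over the 230 probes of chromosome 21 that were above background on all 8 arrays, the median of TET1-KD1 minus TET1-KD2 was −0.63 without and −0.66 with drug. The medians of the other autosomes and chromosome X lay between −0.05 and 0.12 without and between −0.09 and 0.17 with drug. Between CONT1 and CONT2 the medians of chromosome 21 were 0.01 and 0.04. In the whole set, 6 of the 109 probes above background on all arrays differed between the knockdown clones by more than 0.5 in the same direction without and with drug (5.50%, against 10.6% of all such probes). They were *ATP5O*, *ATP5J*, *NDUFV3* and *ATP5D* (chromosome 19), lower in TET1-KD1, and 1 probe each of *NDUFC2* and *UQCR10*, higher in it. Between the control clones 2 did (1.83%, against 2.56%), *NDUFS1*, the largest core subunit of complex I, with 12.15 in CONT1 and 13.23 in CONT2, and 12.05 and 13.14 with drug, and another probe of *NDUFC2*, with 12.97 and 13.75, and 12.43 and 13.19. These genes were singled out after their values had been seen, each clone is 1 sample, and no test was made.

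**Figure D5:**
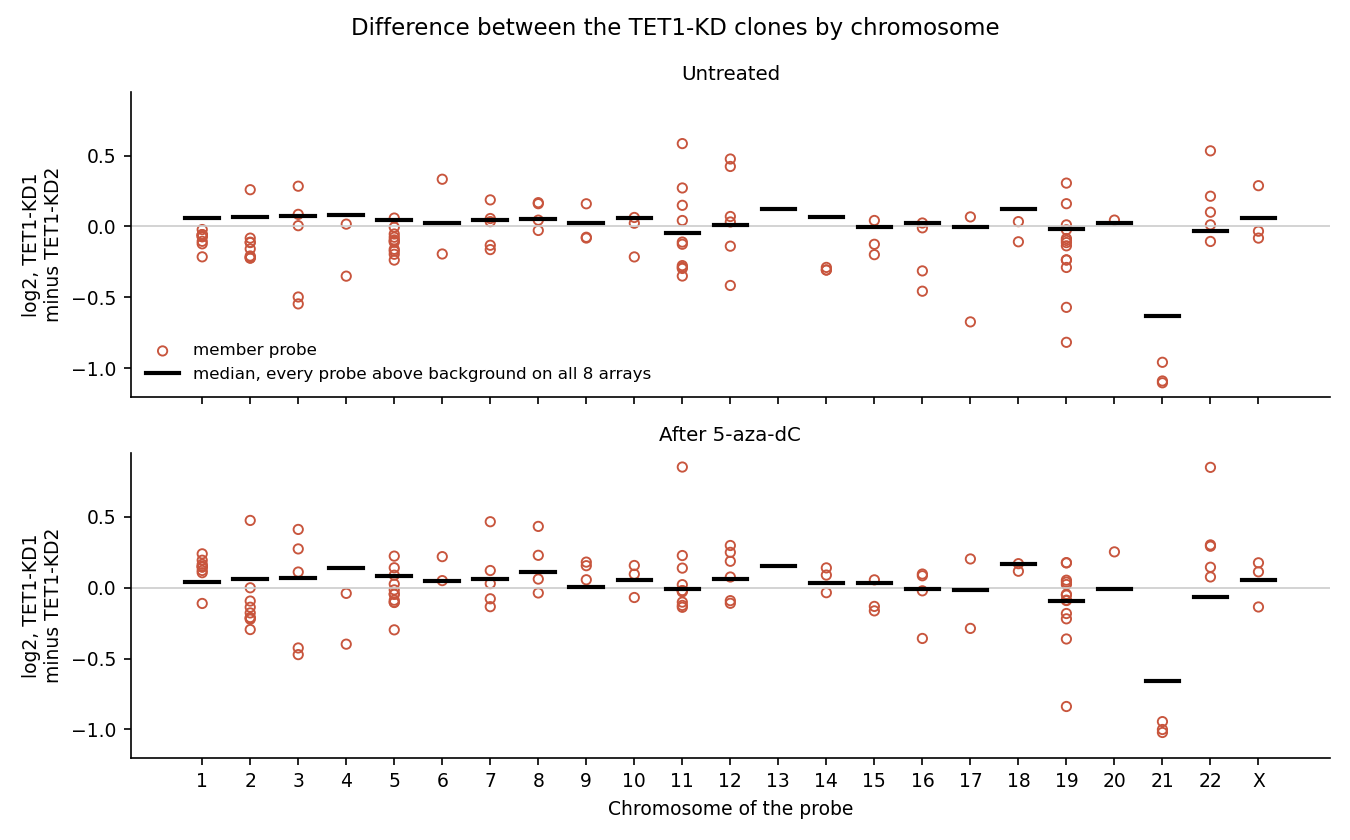
Log2 intensity of TET1-KD1 minus TET1-KD2 by chromosome, without drug (top) and after 5-aza-dC (bottom). Red circles are the 109 probes of the set above background on all 8 arrays, except an *ATP5I* probe without a mapped position. Black lines are the medians of all probes above background on all 8 arrays. The median of chromosome 21 is −0.63 and −0.66, and its 3 circles lie between −0.94 and −1.10.

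Genes that work with these subunits but lie outside the naming rule were described in the same way. For comparison, 19.2% of all probes tested were called higher and 22.6% lower in the control clones. In the knockdown clones these shares were 8.9% and 2.89%. Of 14 probes for the 13 subunits encoded in mitochondrial DNA, 10 were upregulated and 1 downregulated in the control clones, with a median of 0.97, and 1 was downregulated in the knockdown clones, with a median of 0.13. The median in the control clones was 0.70 with quantile normalization (8 and 1 called) and 0.21 with spike-in scaling (4 and 2 called), and slide and treatment cannot be told apart. The *COX1* probe, among those upregulated in the control clones (0.99), is placed on chromosome 1 in hg19 and not on mitochondrial DNA. Which RNA it binds was not tested. *ND6*, which is read from the opposite strand to most mitochondrial genes and was singled out after its values were seen, fell in both kinds of clone. It went from 9.69 and 9.38 to 8.73 and 7.88 in CONT1 and CONT2 (−1.23, adjusted p = 0.0272) and from 10.97 and 10.39 to 8.14 and 8.17 in TET1-KD1 and TET1-KD2 (−2.53, adjusted p = 0.00505). Of 31 probes for assembly factors of the complexes, 9 were downregulated and none upregulated in the control clones, and 1 was downregulated in the knockdown clones, with medians of −0.45 and −0.52. Of 15 probes for cytochrome c, cytochrome c1, the electron-transferring flavoproteins, adenine nucleotide carriers and small associated proteins, 3 were upregulated and 3 downregulated in the control clones. None was called in the clones with knockdown, where 2 had an unadjusted p below 0.05, as did 7602 of all 27286 probes.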

How the data were processed

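RNA of 8 samples was hybridized to one-color Agilent arrays designed on hg19. The authors deposited the scanner output of Feature Extraction 10.7.3.1, that is, spot intensity values with the background subtracted and not normalized between arrays, and a value table that holds the same intensity values rounded to 3 digits. The member genes, gene lists and tests were chosen with earlier results of these data known.

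Each array was divided by the 75th percentile of its intensities and multiplied by the geometric mean of all percentiles, floored at 1 and log2 transformed. Spots marked as outliers or non-uniform were left out, and spots of a probe were averaged. A probe was above background where at least 0.5 of its spots were, and was tested if this held on both arrays of a condition. Groups followed the array titles. Differences were tested in R 4.3.3 by limma 3.58.1, with 4 group means fitted to all 8 arrays, which leaves 4 residual degrees of freedom, and Benjamini-Hochberg adjustment over 27286 probes at 0.05. The t-test that the methods name was run as an alternative. The procedure was tested on simulated data. Treated and untreated arrays of a clone are paired by their titles, and their deviations from the group means correlated with r = 0.20 in the control and 0.48 in the knockdown clones.

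Named members were, in each comparison, up to 10 called genes with the largest rise and 10 with the largest fall (the brightest tested probe per gene, the same direction in both clones), or the 3 smallest p-values where fewer than 3 were called, together with the isoform pairs and the defining subunits of each complex. Some genes that the rule names are not reported here. From each list outside the rule, at most 2 genes called in the knockdown clones were named. A bound compares the mean of the brighter group with the lowest signal well above background, or the probe's own where higher, on each array of the dimmer group. The number of arrays limits the precision, and the median standard error of the 115 probes was 0.16. Alternatives were another background correction, quantile normalization, spike-in scaling, other filters, subtraction of a loess trend on probe GC content (span 0.5), the clone as a block and leaving out each array. Probe positions are those of the files in hg19, and no genome was used here, so that exons and untranslated regions were not assigned. Promoter bases were taken from RefSeq (GRCh38.p14). Plots were drawn with matplotlib 3.10.9.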

Additional observations from a re-analysis of the deposited data

Results flagged for a closer look

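*COX6A2* was singled out because its response differed between the kinds of clone by the interaction test, with a difference of 1.85 on the log2 scale (adjusted p = 0.0352, limma). It is a dim probe that was above background on every array but those of the treated control clones, which lie on the second slide, and their part in the difference was not tested. The call was lost under 12 alternatives and kept under 7. Among the 12 were leaving out any 1 of the arrays except untreated TET1-KD2, and testing without a filter on dim probes. The call was also lost with the GC trend subtracted (1.14, adjusted p = 0.0818, limma), and when the replicate block was added to that. With normexp background correction the difference was 0.15 (adjusted p = 0.722, limma).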

How the results depend on the processing

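Every count below is of the tested member probes. In the control clones, the 15 higher calls became 4 with a minimum change of 2-fold, 25 with the GC trend subtracted and the replicate block, 3 with spike-in scaling and 5 to 14 when arrays were left out in turn. The 19 lower calls became 11 with the methods' t-test, 4 with a minimum of 2-fold, 12 with the GC trend subtracted, 69 with spike-in scaling, 11 with 1 mean value per gene name and 6 to 20 without single arrays. In the knockdown clones, the 3 higher calls became 0 with the methods' t-test and 0 with a filter that demands signal over background on all 8 arrays, which leaves out these genes, and 3 to 4 without single arrays. The 2 lower calls became 4 with normexp correction, 5 with an offset of 50 before the log, 0 with the methods' t-test, 0 to 2 without single arrays, and 1 each without a filter on dim probes, with probes above background on all 8 arrays, with the 4 arrays compared alone, with a minimum of 2-fold, with the GC trend subtracted (with or without the replicate block) and with 1 mean value per gene name. For the difference in response, the 1 higher call became 2 with quantile normalization, 2 with the offset, 9 with spike-in scaling, 0 without a filter, 0 with the GC trend subtracted (with or without the block) and 0 to 1 without single arrays, and the 0 lower calls became 1 with normexp correction, 2 with probes above background on all 8 arrays, 4 with the offset and 1 with the GC trend subtracted. No alternative called a probe between untreated clones. *NDUFS5* reversed to −0.10 in the control clones with spike-in scaling. The cause of these changes was not tested, except that fewer probes or samples enter where they are left out. *COX7A1*, *COX8C* and *COX7B2* were called higher in the control clones under all 21 alternatives run for them and in the knockdown clones under all but the methods' t-test.

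With the clone as a replicate block, 18 probes were called higher and 23 lower in the control clones, 3 higher and 3 lower in the knockdown clones, and *COX4I2* lost its call in the control clones (adjusted p = 0.0548); between untreated clones the replicate number was the block, and 0 were called. The fit of 4 arrays and the t-test were not run for the difference in response. With 2 clones per condition, small changes remain undetermined, and dim probes depend on the background correction.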

Other observations

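The mitochondrial ribosome, which makes the subunits encoded in mitochondrial DNA, had 94 tested probes of 76 genes. The control clones had 11 upregulated and 33 downregulated (median −0.31), whereas among the knockdown arrays none was upregulated and 12 were downregulated (median −0.37, and −0.25 with quantile normalization, where the median of all probes was −0.13). The cytosolic ribosome had 174 probes, with 29 called in each direction in the control clones, and 1 downregulated in the clones with knockdown (medians 0.03 and −0.11). For comparison, 19.2% of all probes tested were called higher and 22.6% lower in the control clones. In the knockdown clones these shares were 8.9% and 2.89%. Whether the ribosomal lists differ from the subunits of oxidative phosphorylation was not tested.

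Among 19 probes for enzymes of the citric acid cycle, 2 were upregulated and 8 downregulated in the control clones (median −0.50). In the knockdown clones 4 were downregulated (median −0.34). The shares of all probes called higher and lower were 19.2% and 22.6% in the control clones, and 8.9% and 2.89% in the knockdown clones. *IDH3B*, a regulatory subunit of isocitrate dehydrogenase, fell on both of its probes, by 1.11 and 0.64 in the control clones (adjusted p = 0.00182 and 0.012) and by 0.71 and 0.57 in the knockdown clones (adjusted p = 0.0243 and 0.0463). *SUCLG2*, a subunit of succinyl-CoA ligase, fell by 1.57 (adjusted p = 0.000946) and 0.74 (adjusted p = 0.0365). Of 17 probes for regulators of mitochondrial biogenesis, 4 were downregulated in the control clones, and 2 in the clones with knockdown. The latter were *PPRC1*, a coactivator of the PGC-1 family, with −0.68 (adjusted p = 0.0265), and *MYC*, with −0.77 (adjusted p = 0.0407). In the control clones these differed by −0.06 and −0.53 and did not pass the test.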
